A study of Rattus norvegicus with 39 samples.

Results

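This account follows 9 genes of microglia, tissue macrophages and the complement system: Fcgr2b, Cd53, Aif1, Ctss, C1qb, C1qc, C3, Coro1a and Lyz2. They were taken by gene symbol, as every probe set whose platform annotation gives one of these symbols and no other. That gave 15 probe sets out of the 7006 with a single symbol, and 9 genes out of 4736. Transcripts were measured in CA1, the hippocampal field of pyramidal neurons, on Affymetrix rat arrays, with 1 array for each of 39 male Fischer 344 rats aged 18 months. Values are log2 expression as deposited, and each p-value below compares animals.

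The 10 Sham rats kept their adrenal glands and carried an inert pellet. All other rats were adrenalectomized (ADX), so they made no corticosterone (CORT), the main glucocorticoid of the rat, and received it from a slow-release pellet for 3 months. Before pellet implantation every ADX rat drank saline with sucrose, was fed supplements and was injected with a corticosterone salt, and 1 ADX rat was later removed for its health. The 10 LowCORT rats had a pellet of 25 mg, and the 9 IntermediateCORT rats one of 200 mg. A further 10 rats, called the injected group here, had the 25 mg pellet and 4 daily intraperitoneal injections of 5 mg CORT in the last week. Both low-dose groups went on drinking saline with sucrose, which the other groups are not said to have done to the end, so drinking fluid and pellet dose cannot be told apart in comparisons of low-dose rats with Sham or IntermediateCORT rats. The labels tie each array to a single animal and give no array batch or day of death per animal.

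Microglia are the resident macrophages of the brain, and glucocorticoids are known to restrain many of their inflammatory genes through the glucocorticoid receptor. Complement C1q, built from A, B and C chains, binds tagged surfaces and starts the classical cascade, which cleaves C3 so that its fragments coat the target for uptake by phagocytes. Fcgr2b encodes the inhibitory receptor for IgG, which opposes activating Fc receptors on the same cell.

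Of the 15 probe sets, 13 had a mean over all arrays at or above the 30th percentile of the array (log2 6.28) and were tested. The 2 that fell below it both belong to C1qc, with means of 5.16 and 5.31, and C1qc was tested through its other probe set. Some arrays stood apart before any comparison. The median correlation of an array with the others of its group was lowest for injected animal 34 (r = 0.962), Sham animal 6 (r = 0.964) and injected animal 35 (r = 0.965). Sham animal 6 gave the lowest value of its group on 6 of the 13 probe sets and the highest on 4, LowCORT animal 20 the lowest on 7, and injected animal 34 the lowest on 5 and the highest on 5. Injected animals 35 and 39 had a difference between the 3′ and 5′ Gapdh probe sets of 2.41 and 1.56 log2, against a highest value of 1.15 in any other group. A larger difference means less signal from the 5′ end of the transcript. The same difference for beta-actin was 2.13 in animal 39 but 0.04 in animal 35, the lowest of all arrays. The 2 control transcripts thus went opposite ways in animal 35, and these 2 arrays are alike only by Gapdh.

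All 7 CA1 pyramidal neuron markers on the array passed the level filter, as did 3620 of all 4736 genes with a single symbol. No marker of another hippocampal field was used, so this does not test the CA1 label. Of the microglial and macrophage list, 17 of the 23 genes on the array passed, Csf1r, Cx3cr1 and P2ry12 among them, as did 6 of 11 lymphocyte markers and 0 of 4 granulocyte markers. This is bulk tissue, in which fewer cells of a type and less RNA per cell cannot be told apart.

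Members were called in 3 of the 6 comparisons, all of them with LowCORT rats on one side. Against Sham, LowCORT rats had 2 of the 13 probe sets higher and 0 lower at an adjusted p under 0.05 (limma, Benjamini-Hochberg over 6118 probe sets), where 1.68% of all probe sets were called and 1.05% were called higher. IntermediateCORT rats had 3 lower and 0 higher than LowCORT, with 2.14% of all probe sets called and 1.5% called lower. Injected rats had 2 lower and 0 higher than LowCORT, with 0.343% called and 0.196% called lower. The median difference of the 13 was 0.15 log2 in LowCORT minus Sham, beside -0.01 for all probe sets tested. It was -0.21 in IntermediateCORT minus LowCORT, beside 0.01, and -0.07 in injected minus LowCORT, beside 0.01. At an unadjusted p under 0.05 (limma) the members counted 6, 8 and 6 of 13 in these comparisons, where 13.6%, 11.9% and 7.37% of all probe sets passed. These 3 comparisons use the same LowCORT arrays, so their values stand side by side and do not support one another.

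No member was called in the other comparisons. Injected minus IntermediateCORT had 0 of 13 called and 2 at an unadjusted p under 0.05 (limma), where 0.196% and 11.4% of all probe sets passed these thresholds, with 0.114% called higher and 0.0817% called lower. Injected minus Sham had 0 called and 1 at the unadjusted threshold, beside 0.229% and 5.95% of all probe sets. IntermediateCORT minus Sham had 0 called and 0 at the unadjusted threshold, beside 0.0163% and 4.22%. The median of the 13 was 0.09 in injected minus IntermediateCORT, 0.07 in injected minus Sham and -0.02 in IntermediateCORT minus Sham, beside 0.02, 0.00 and 0.00 for all probe sets; the first 2 exceed in size the median of injected minus LowCORT. The moderated F test over the 4 groups called 3 of the 13, where it called 2.27% of all probe sets. These were Fcgr2b (adjusted p = 0.000503), C3 by probe set M29866_s_at (adjusted p = 0.0271) and Cd53 (adjusted p = 0.0483).

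**Figure D1:**
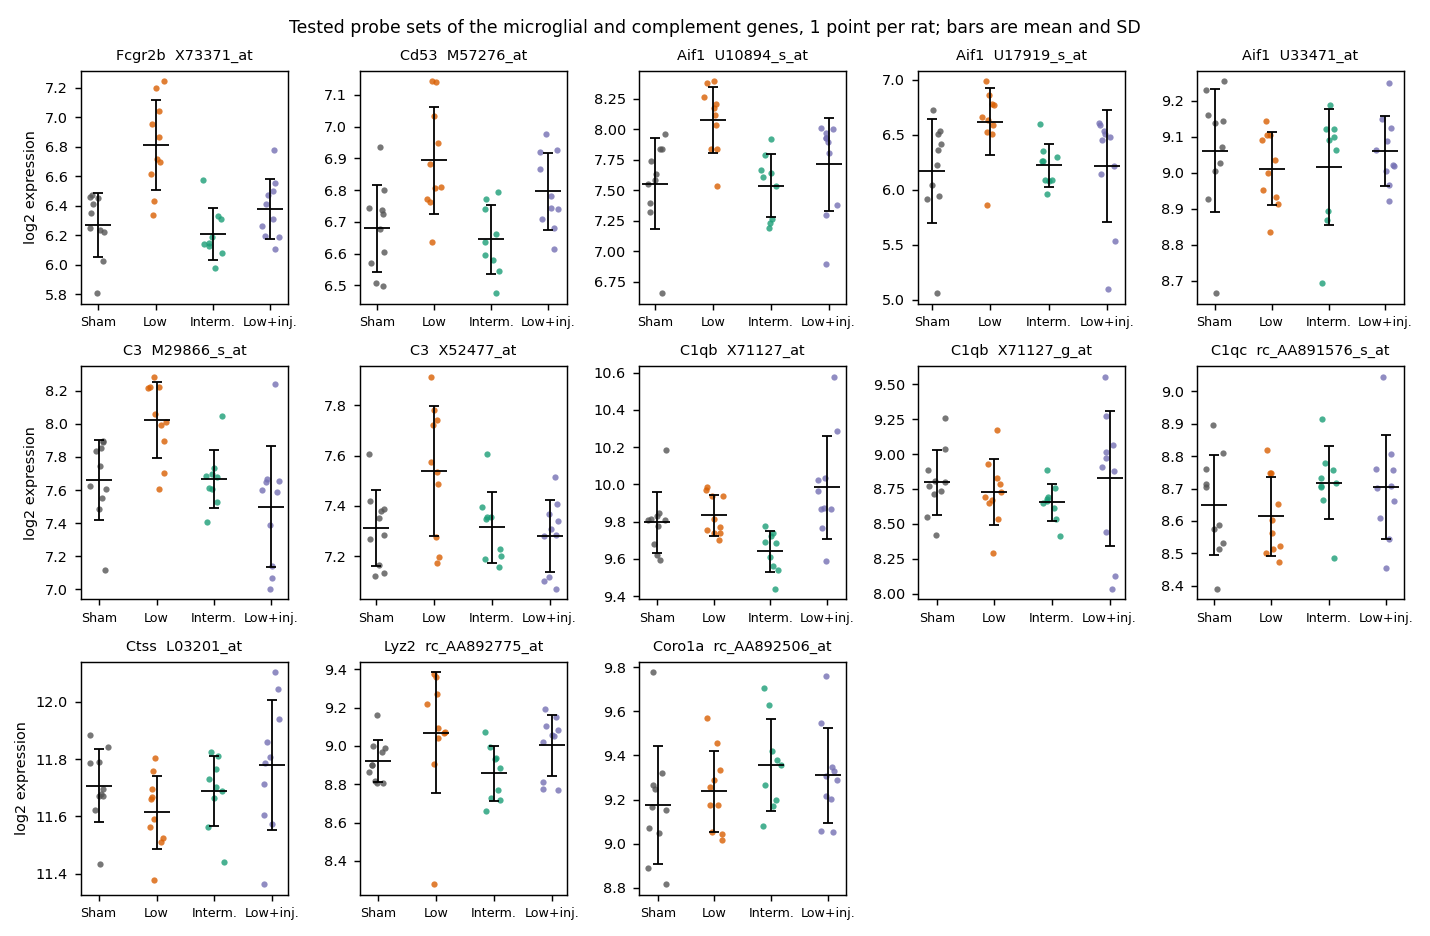
Log2 expression (vertical axes, each with its own range) of the 13 tested probe sets in Sham, LowCORT (Low), IntermediateCORT (Interm.) and injected (Low+inj.) rats, with 1 point per rat and bars for mean and SD. The LowCORT points of Fcgr2b, from 6.33 to 7.25, lie mostly above the other groups, while those of Aif1 U33471_at, from 8.83 to 9.14, lie among them.

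Fcgr2b, the inhibitory IgG receptor, was the member that differed most clearly. Its probe set X73371_at ranged from 5.81 to 6.47 in Sham rats, with a median of 6.30, and from 6.33 to 7.25 in LowCORT rats, with a median of 6.79. In IntermediateCORT rats the values ran from 5.98 through a median of 6.14 to 6.58, and in injected rats from 6.11 through 6.36 to 6.78. All 10 LowCORT rats lay above the Sham mean, and 8 lay above the highest Sham rat, although the ranges of the groups overlap. Likewise, 8 of 9 IntermediateCORT rats and 5 of 10 injected rats lay below the lowest LowCORT rat.

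Group means of Fcgr2b were 6.27 ± 0.21 (SD, n = 10) in Sham, 6.81 ± 0.31 (n = 10) in LowCORT, 6.21 ± 0.18 (n = 9) in IntermediateCORT and 6.38 ± 0.21 (n = 10) in injected rats. The Sham and IntermediateCORT means lay below the level filter of 6.28. The mean over all arrays, 6.42, was at the 32.6th percentile, not far above that filter. Fcgr2b had no other probe set on the array. LowCORT exceeded Sham by 0.54 log2 (1.46-fold, SE 0.10, limma adjusted p = 0.000951), and IntermediateCORT lay below LowCORT by the larger amount of the pair, with a difference of -0.60 (1.52-fold, SE 0.10, adjusted p = 0.000412). Injected rats also had less than LowCORT, with a difference of -0.43 (1.35-fold, SE 0.10, adjusted p = 0.037). The order of the means was LowCORT, injected, Sham, IntermediateCORT, and the last 3 were not distinguished: their differences had 95% intervals of -0.04 to 0.38 (injected minus IntermediateCORT), -0.09 to 0.31 (injected minus Sham) and -0.27 to 0.15 (IntermediateCORT minus Sham).

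The first 2 of the Fcgr2b differences kept their call when each of the 39 arrays was left out in turn, with adjusted p between 0.000194 and 0.00323 against Sham and between 7.05e-05 and 0.0017 for IntermediateCORT. The difference after injections was less firm. It lost its call in 11 of the 39 cases, namely without LowCORT animal 21, 25, 27, 28 or 29 or injected animal 32, 33, 34, 35, 37 or 39, with adjusted p from 0.0527 to 0.0981. Without injected animals 35 and 39 together, the arrays with the large Gapdh difference, it was -0.38 (adjusted p = 0.17), and with only these 2 groups in the model it stayed at -0.43 with adjusted p = 0.161. With the Gapdh and beta-actin 3′ minus 5′ differences in the model it was -0.37 (adjusted p = 0.106).

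Cd53, a tetraspanin of the leukocyte surface, was lower in IntermediateCORT than in LowCORT rats, by less than Fcgr2b. Its probe set M57276_at ran from 6.50 through a median of 6.70 to 6.94 in Sham and from 6.64 through 6.85 to 7.14 in LowCORT. IntermediateCORT rats lay between 6.48 and 6.79 with a median of 6.64, and injected rats between 6.62 and 6.98 with a median of 6.76. The ranges overlap throughout; all 9 IntermediateCORT rats lay below the LowCORT mean, and 4 lay below its lowest rat. The difference of IntermediateCORT minus LowCORT was -0.25 (1.19-fold, SE 0.06, limma adjusted p = 0.0229). It lost its call without IntermediateCORT animal 14 or 16 or LowCORT animal 28 or 29 (adjusted p from 0.0573 to 0.064).

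LowCORT minus Sham for Cd53 was 0.21 (SE 0.06, adjusted p = 0.0626), outside the threshold. It came under it without Sham animal 4, LowCORT animal 20 or LowCORT animal 26, with adjusted p from 0.024 to 0.0475. Injected minus LowCORT was -0.10, with a 95% interval from -0.22 to 0.03. Injected rats thus had a mean of 6.80 ± 0.12 (n = 10) between those of LowCORT (6.89 ± 0.17, n = 10) and IntermediateCORT (6.64 ± 0.11, n = 9), and neither of these 2 differences passed the test (adjusted p = 0.716 and 0.353).

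The 300 bases around the Cd53 start site are shown because Cd53 is a called member with a promoter in the RefSeq table used here (GRCr8, chr2:197087847-197088146, minus strand, 250 bases before the start and 50 after). Capitals mark matches to the PU.1 core GAGGAA, here as TTCCTC on the other strand 44 bases before the start, and to the short glucocorticoid receptor site AGAACA, here as TGTTCT 227 bases before it. PU.1 is a transcription factor that specifies myeloid cells.
Cd53: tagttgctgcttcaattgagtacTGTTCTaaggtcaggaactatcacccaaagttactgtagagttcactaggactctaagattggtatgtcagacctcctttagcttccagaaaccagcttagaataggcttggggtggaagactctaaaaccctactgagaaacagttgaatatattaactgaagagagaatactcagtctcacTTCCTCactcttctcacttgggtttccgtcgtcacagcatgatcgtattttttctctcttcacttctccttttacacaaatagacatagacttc
On both strands, 27.6% of all 33469 windows of this length held GAGGAA and 20.7% held AGAACA, so matches of this kind are common. Of the 6 members with a window, 4 held the PU.1 core (Cd53, Ctss, C1qb and Lyz2) and 2 the short receptor site (Cd53 and Lyz2). A match is a description of the letters and not of binding.

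Aif1 encodes Iba1, a calcium-binding protein of microglia, and its 3 probe sets did not agree. U10894_s_at gave values from 6.66 through a median of 7.61 to 7.96 in Sham rats and from 7.54 through 8.15 to 8.40 in LowCORT rats. In IntermediateCORT rats it ran from 7.19 through 7.61 to 7.92, and in injected rats from 6.90 through 7.91 to 8.02. Although the ranges overlap, 7 of 10 LowCORT rats lay above every Sham rat, and all 9 IntermediateCORT and all 10 injected rats lay below the LowCORT mean.

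By U10894_s_at, LowCORT exceeded Sham by 0.53 (1.44-fold, SE 0.14, limma adjusted p = 0.0396), and IntermediateCORT minus LowCORT was -0.54 (1.45-fold, SE 0.14, adjusted p = 0.0335). Injected minus LowCORT was -0.37 (SE 0.14, adjusted p = 0.506). Both calls were lost when certain single animals were left out. The first was lost without Sham animal 1, 3, 5, 6 or 9 or LowCORT animal 21, 24, 25, 27, 28 or 29 (adjusted p from 0.0526 to 0.0838), and without Sham animal 6, whose value of 6.66 is the lowest in the series, the difference was 0.43. The second was lost without IntermediateCORT animal 13, 14, 15 or 16 or LowCORT animal 21, 24, 25, 27, 28 or 29 (adjusted p from 0.0504 to 0.0892).

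The second Aif1 probe set, U17919_s_at, had differences of like size that did not pass the test: 0.45 in LowCORT minus Sham (SE 0.17, adjusted p = 0.2), -0.40 in IntermediateCORT minus LowCORT (SE 0.17, adjusted p = 0.32) and -0.40 in injected minus LowCORT (SE 0.17, adjusted p = 0.595). Its mean over all arrays, 6.31, passed the level filter of 6.28 only through LowCORT rats. Their mean was 6.62, against 6.17 in Sham, 6.22 in IntermediateCORT and 6.22 in injected rats. This probe set is therefore shown beside U10894_s_at as a description. It followed the Gapdh 3′ minus 5′ difference over the 39 animals, group means removed (r = -0.51, rho = -0.55, permutation p = 0.00841 and 0.00053, adjusted over 26 relations 0.0485 and 0.00344; r = -0.47 without the 2 farthest arrays). The third, U33471_at, stayed near 9.0 in every group. Its means were 9.06 ± 0.17 (n = 10) in Sham, 9.01 ± 0.10 (n = 10) in LowCORT, 9.02 ± 0.16 (n = 9) in IntermediateCORT and 9.06 ± 0.10 (n = 10) in injected rats. Its difference of LowCORT minus Sham had a 95% interval from -0.17 to 0.07, which does not reach the 0.53 of U10894_s_at.

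The disagreement was tested directly, after the values had been seen, as the difference between 2 probe sets on each array. U10894_s_at minus U33471_at shifted by 0.58 from Sham to LowCORT and by -0.55 from LowCORT to IntermediateCORT, both with p = 0.00682 by a two-sided exact permutation test adjusted over 20 such tests of 5 pairs. U17919_s_at minus U33471_at also shifted in both (adjusted p = 0.0454 in each, exact permutation test). Since U17919_s_at passed the level filter only through its LowCORT values, this shift does not count as separate support. The same test between U10894_s_at and U17919_s_at gave adjusted p = 0.509 and 0.143. Among animals of a group, U10894_s_at and U17919_s_at rose and fell together (Pearson r = 0.88, Spearman rho = 0.80, permutation p = 1e-05 for each, the smallest 100000 permutations can give), whereas neither was correlated with U33471_at over the 39 animals (r = 0.17, rho = -0.03, and r = 0.06, rho = -0.07, permutation p from 0.314 to 0.875). Within the single groups, r of either with U33471_at ran from -0.74 to 0.62. U33471_at is the probe set that stands for Aif1 where 1 probe set per gene is used here.

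**Figure D2:**
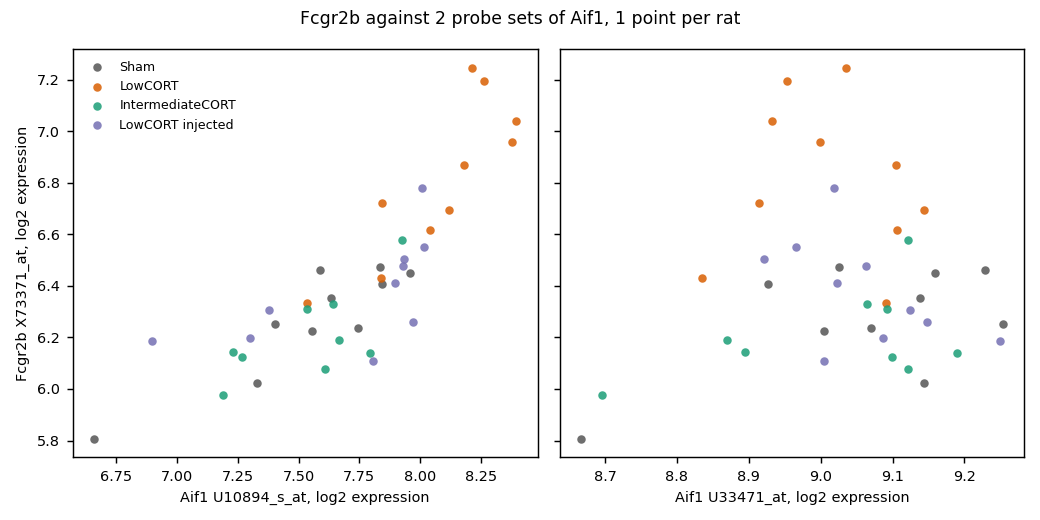
Fcgr2b (vertical axis, log2 expression) against Aif1 by U10894_s_at (left) and by U33471_at (right), 1 point per rat coloured by group. The points are drawn with group means kept, so they also hold the differences between groups. On the left they lie along a rising line, and on the right they show no such line. With group means removed, which is not drawn, r over 39 rats was 0.73 for the left pair and 0.17 for the right.

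Coro1a encodes coronin 1A, an actin-binding protein of leukocytes. Its probe set rc_AA892506_at ran from 8.82 through a median of 9.16 to 9.78 in Sham, from 9.01 through 9.22 to 9.57 in LowCORT, from 9.08 through 9.36 to 9.71 in IntermediateCORT and from 9.05 through 9.30 to 9.76 in injected rats. The groups overlap almost entirely. Its largest difference was 0.18 in IntermediateCORT minus Sham (95% interval -0.02 to 0.38, limma adjusted p = 0.998). The interval of LowCORT minus Sham, -0.13 to 0.25, lies below the increase measured for Fcgr2b.

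Ctss encodes cathepsin S, a lysosomal protease of antigen-presenting cells. Its probe set L03201_at ran from 11.43 through a median of 11.69 to 11.88 in Sham, from 11.38 through 11.62 to 11.80 in LowCORT, from 11.44 through 11.70 to 11.82 in IntermediateCORT and from 11.36 through 11.80 to 12.10 in injected rats. LowCORT was the lowest group by mean here, unlike for Fcgr2b. LowCORT minus Sham was -0.09 (95% interval -0.23 to 0.05, limma adjusted p = 0.616), and injected minus LowCORT was 0.16 (interval 0.02 to 0.31, adjusted p = 0.605). Neither passed the test. With array weights the second was called (0.23, adjusted p = 0.038), in the direction opposite to Fcgr2b and C3.

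Lyz2, lysozyme of myeloid cells, had means of 8.92 ± 0.11 (n = 10) in Sham, 9.07 ± 0.32 (n = 10) in LowCORT, 8.86 ± 0.14 (n = 9) in IntermediateCORT and 9.00 ± 0.16 (n = 10) in injected rats by probe set rc_AA892775_at. LowCORT animal 20 had 8.28, the lowest value of all groups, while the next lowest LowCORT rat had 8.91. IntermediateCORT minus LowCORT was -0.21 (SE 0.09, limma adjusted p = 0.296). Without that rat it was -0.30 with adjusted p = 0.00782, and with all rats kept but arrays weighted by their quality it was -0.27 with adjusted p = 0.00946. LowCORT minus Sham was 0.15 (SE 0.09, adjusted p = 0.486).

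C3, the component on which the complement pathways converge, was measured by 2 probe sets. M29866_s_at ran from 7.12 through a median of 7.68 to 7.90 in Sham, from 7.61 through 8.04 to 8.28 in LowCORT, from 7.41 through 7.68 to 8.05 in IntermediateCORT and from 7.00 through 7.59 to 8.24 in injected rats. Of the LowCORT rats, 8 of 10 lay above the highest Sham rat. Of the injected rats, 6 of 10 lay below the lowest LowCORT rat, while 1 injected rat reached 8.24, near the top of the LowCORT range.

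By M29866_s_at, injected minus LowCORT was -0.52 (1.44-fold, SE 0.11, limma adjusted p = 0.0237), from means of 7.50 ± 0.37 (n = 10) and 8.02 ± 0.23 (n = 10). The call was lost without LowCORT animal 21, 25 or 29 or injected animal 33, 34 or 39 (adjusted p from 0.0503 to 0.0594). Without injected animals 35 and 39 together the difference was -0.42 (adjusted p = 0.12), and with only the 2 groups in the model it stayed at -0.52 with adjusted p = 0.129. Over the 39 animals, group means removed, M29866_s_at fell as the Gapdh 3′ minus 5′ difference rose (r = -0.51, rho = -0.43, permutation p = 0.00932 and 0.0115, adjusted over 26 relations 0.0485 and 0.0598; r = -0.42 without the 2 farthest arrays), and the mean of that difference was 1.03 in injected and 0.81 in LowCORT arrays. With it and the beta-actin difference in the model, injected minus LowCORT was -0.43 (adjusted p = 0.0448). LowCORT minus Sham was 0.36 (SE 0.11, adjusted p = 0.0975) and IntermediateCORT minus LowCORT was -0.36 (SE 0.12, adjusted p = 0.117), neither called. Both passed when the Gapdh and beta-actin 3′ minus 5′ differences entered the model (0.39, adjusted p = 0.0225, and -0.41, adjusted p = 0.0187).

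The other C3 probe set, X52477_at, differed in the same directions by less, with no call: 0.23 in LowCORT minus Sham (SE 0.08, adjusted p = 0.143), -0.22 in IntermediateCORT minus LowCORT (SE 0.08, adjusted p = 0.184) and -0.26 in injected minus LowCORT (SE 0.08, adjusted p = 0.245). All 10 injected rats lay below the LowCORT mean by this probe set. No difference between the shifts of the 2 probe sets passed the exact permutation test (adjusted p from 0.143 to 0.509 in 4 comparisons), which does not show that they act alike. Among animals of a group they followed each other weakly (r = 0.25, rho = 0.20, permutation p = 0.124 and 0.253), with r = 0.71 within LowCORT and r between -0.19 and 0.12 within the other groups.

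The promoter of C3 is shown as the other called member with a RefSeq window (GRCr8, chr9:2201290-2201589, minus strand, 250 bases before the start and 50 after). It holds no match to the PU.1 core, the short glucocorticoid receptor site, the full receptor site (GNACA and TGTNC, 3 bases apart) or the interferon-stimulated response element (2 copies of GAAA, 2 bases apart), all sought on both strands. It is therefore in lower case throughout, and these letters being absent here says nothing of the factors.
C3: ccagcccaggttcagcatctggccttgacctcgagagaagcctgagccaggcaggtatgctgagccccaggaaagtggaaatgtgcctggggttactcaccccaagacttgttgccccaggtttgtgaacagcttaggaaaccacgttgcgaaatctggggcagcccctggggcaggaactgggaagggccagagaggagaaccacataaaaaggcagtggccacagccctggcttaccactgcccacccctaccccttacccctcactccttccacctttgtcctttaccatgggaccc

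C1qb encodes the B chain of C1q. By both of its probe sets, X71127_at and X71127_g_at, the highest mean was that of injected rats, whereas for C3 and Fcgr2b it was that of LowCORT rats. No C1qb difference was called in the main analysis. By X71127_at the values ran from 9.59 through a median of 9.81 to 10.19 in Sham, from 9.70 through 9.79 to 9.99 in LowCORT, from 9.44 through 9.69 to 9.78 in IntermediateCORT and from 9.59 through 9.92 to 10.58 in injected rats. Injected rats were highest and IntermediateCORT rats lowest by mean. Of 10 injected rats, 8 lay above the highest IntermediateCORT rat.

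Injected minus IntermediateCORT by X71127_at was 0.34 (1.27-fold, SE 0.08, limma adjusted p = 0.0612), just outside the threshold, from means of 9.99 ± 0.28 (n = 10) and 9.64 ± 0.11 (n = 9). It came under the threshold without Sham animal 6, IntermediateCORT animal 11 or injected animal 30, 33, 35 or 39 (adjusted p from 0.014 to 0.0462), and without injected animals 35 and 39 together it was 0.42 (adjusted p = 0.00989). LowCORT minus Sham was 0.04 (95% interval -0.12 to 0.20) and IntermediateCORT minus LowCORT was -0.19 (interval -0.36 to -0.03, adjusted p = 0.297).

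By X71127_g_at, injected minus IntermediateCORT was 0.17 (SE 0.13, adjusted p = 0.642). This probe set followed the 3′ minus 5′ differences of the control transcripts over the 39 animals, group means removed. Its r was -0.69 with the Gapdh difference (rho = -0.61, permutation p = 0.00014, adjusted over 26 relations 0.00286; r = -0.52 without the 2 farthest arrays). With beta-actin it was -0.63 (rho = -0.70, permutation p = 0.00056, adjusted 0.00485; r = -0.50 without the 2 farthest). With both differences in the model, injected minus IntermediateCORT was 0.39 by X71127_g_at (adjusted p = 0.035) and 0.38 by X71127_at (adjusted p = 0.0268). The mean Gapdh difference was 1.03 ± 0.60 (n = 10) in injected, 0.63 ± 0.21 (n = 9) in IntermediateCORT, 0.81 ± 0.24 (n = 10) in LowCORT and 0.70 ± 0.22 (n = 10) in Sham arrays.

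Among the promoter windows, that of C1qb was the only 1 of 6 to hold the full glucocorticoid receptor site, which 0.439% of all windows held. It reads GGACAGGTTGTCC and lies 173 bases before the start. The Ctss window held the interferon-stimulated response element as GAAACCGAAA, 36 bases before the start, a motif found in 3.92% of all windows.

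C1qc encodes the C chain of C1q and lies beside C1qb and C1qa in the RefSeq gene order. Its tested probe set, rc_AA891576_s_at, ran from 8.39 through a median of 8.65 to 8.90 in Sham, from 8.47 through 8.58 to 8.82 in LowCORT, from 8.49 through 8.72 to 8.91 in IntermediateCORT and from 8.46 through 8.70 to 9.04 in injected rats. No comparison passed, and the differences ran from -0.03 in LowCORT minus Sham (95% interval -0.16 to 0.09, limma adjusted p = 0.872) to 0.10 in IntermediateCORT minus LowCORT (interval -0.03 to 0.23, adjusted p = 0.585). It too followed the beta-actin 3′ minus 5′ difference (r = -0.59, rho = -0.57, permutation p = 0.00022, adjusted over 26 relations 0.00286; r = -0.50 without the 2 farthest arrays).

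**Figure D3:**
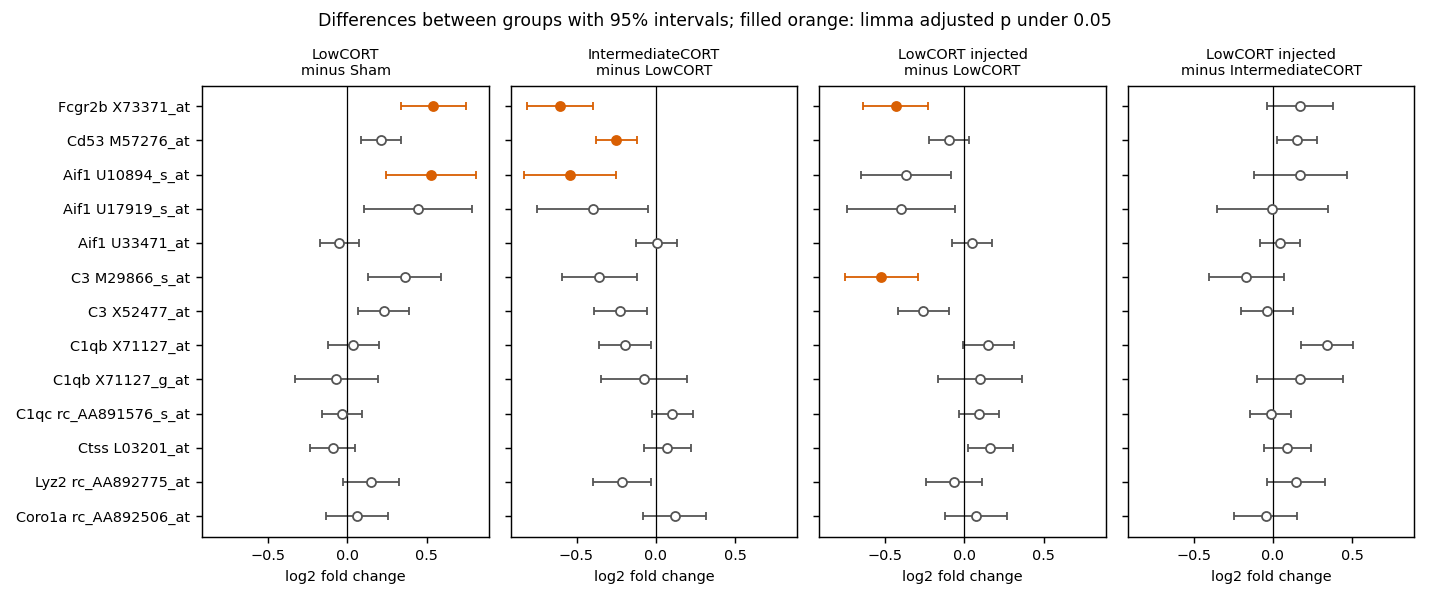
Differences in log2 expression between groups (horizontal axes) for the 13 tested probe sets, with 95% intervals from limma and filled orange points for an adjusted p under 0.05. Fcgr2b is filled in the first 3 panels (0.54, -0.60 and -0.43), and in the fourth, injected minus IntermediateCORT, no point is filled and C1qb X71127_at lies farthest from 0 at 0.34.

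Within groups, some pairs of members varied together from animal to animal and a few in opposite directions. With 1 probe set per gene, the one with the highest mean, 13 of 36 pairs of genes were correlated over the 39 animals after group means were removed (permutation within groups, adjusted over 36 pairs, under 0.05), 10 positively and 3 negatively. That is 36.1% of the pairs with an r of at least 0.41 in size, and 20.1% of all pairs of the 5065 tested probe sets with a single symbol reached that size. The median size of r was 0.27 in the member pairs and 0.22 in all pairs. By sign, 19 of the 36 were positive and 17 negative, with a median r of 0.01. The lowest r was -0.52, for Coro1a with Aif1 by U33471_at (rho = -0.39, adjusted permutation p = 0.00836 and 0.0638). Of the 10 positive pairs, 8 were among Fcgr2b, Cd53, Lyz2, C3 and Ctss. All pairs share the arrays on which they were measured, and with them whatever differs from array to array.

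Fcgr2b and Lyz2 had r = 0.64 (rho = 0.61, permutation p = 3e-05 and 0.0001, adjusted 0.00054 and 0.0018), r = 0.58 without the 2 farthest arrays, and r from 0.40 to 0.83 within the single groups. Cd53 and Ctss had r = 0.63 (rho = 0.64, permutation p = 3e-05 and 2e-05, adjusted 0.00054 and 0.00072), r = 0.67 without the 2 farthest, and r from 0.44 to 0.87 within groups. Ctss thus followed Cd53 from animal to animal, while its mean was lowest in the group where that of Cd53 was highest. C3 by M29866_s_at and Cd53 had r = 0.58 (rho = 0.60, permutation p = 9e-05 and 0.00017, adjusted 0.00108 and 0.00204), r = 0.55 without the 2 farthest, and r from 0.16 to 0.82 within groups.

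C1qb and C1qc had no called pair with those 5 genes. Between X71127_at and C1qc r was 0.52 (permutation p = 0.00308, adjusted 0.0106), but rho was 0.32 (p = 0.0576, adjusted 0.13), r fell to 0.41 without the 2 farthest arrays, and it ran from 0.10 to 0.84 within groups. With the Gapdh and beta-actin 3′ minus 5′ differences held constant, r of this pair was 0.39 (permutation p = 0.0176, adjusted 0.0576), so the call was lost. C1qc also rose with Coro1a (r = 0.55, rho = 0.46, permutation p = 0.00074 and 0.00526, adjusted 0.00381 and 0.0271; r = 0.42 without the 2 farthest; 0.28 to 0.83 within groups). Coro1a ran against Fcgr2b (r = -0.46, rho = -0.37, permutation p = 0.00324 and 0.026, adjusted 0.0106 and 0.078; r = -0.33 without the 2 farthest), with r from -0.73 to -0.18 within groups. Its negative relation with Ctss (r = -0.41, rho = -0.25, permutation p = 0.013 and 0.145, adjusted 0.036 and 0.261) rests on the 2 farthest arrays, since it was -0.24 without them.

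**Figure D4:**
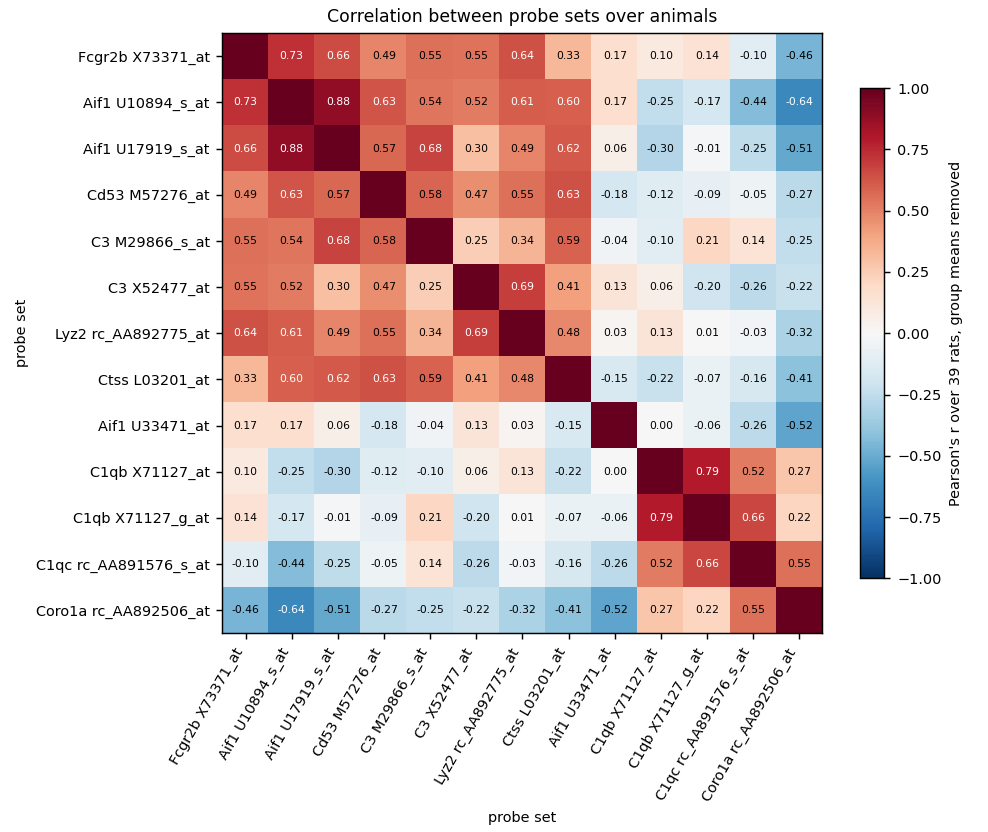
Pearson's r between the 13 tested probe sets over 39 rats with group means removed, as a colour from -1 (blue) to 1 (red) and a number in each cell. A block of positive values joins Fcgr2b, 2 Aif1 probe sets, Cd53, C3, Lyz2 and Ctss, while C1qc is positive with C1qb (0.52 and 0.66) and with Coro1a (0.55). With the Gapdh and beta-actin 3′ minus 5′ differences held constant, the C1qc values were 0.39 and 0.47 with C1qb and 0.65 with Coro1a.

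For each member, the 2 genes most like it over the 39 animals were taken from the 5065 probe sets by Pearson's r with group means removed, and their values are a description of the highest of many. For Fcgr2b these were Aif1 by U10894_s_at (r = 0.73, rho = 0.74) and Pggt1b (r = 0.67, rho = 0.58), and for Cd53 they were Nr1d2 (r = 0.79, rho = 0.80) and Rabggtb (r = 0.77, rho = 0.81). For Ctss they were Gstm5 (r = 0.78) and Fez1 (r = 0.76), for Lyz2 Me1 (r = 0.83) and Idh1 (r = 0.80), and for C3 Slc1a2 (r = 0.81) and Pgm1 (r = 0.79). For C1qb they were Fxyd1 (r = 0.81) and Arl2 (r = 0.80), for C1qc Vps52 (r = 0.83) and Akt1 (r = 0.79), for Coro1a Elob (r = 0.89) and Rnpep (r = 0.87), and for Aif1 by U33471_at Ins1 (r = 0.77) and Slc4a1 (r = 0.75). Fcgr2b was the only member with another member among its nearest genes.

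Beyond the members, few genes of the same systems passed the test, and lists this short would hold few calls at the shares of all probe sets. These shares were 1.68% (LowCORT minus Sham), 2.14% (IntermediateCORT minus LowCORT) and 0.343% (injected minus LowCORT) called by limma. At an unadjusted p under 0.05 (limma) they were 13.6%, 11.9% and 7.37%. The microglial and macrophage list had 9 tested genes that are not members. Of these, 0 were called in LowCORT minus Sham by limma, 2 had an unadjusted p under 0.05, with 7 positive and 2 negative and a median of 0.07. In IntermediateCORT minus LowCORT 1 was called, Cyba, a subunit of the phagocyte NADPH oxidase, with a difference of -0.24 (SE 0.06, limma adjusted p = 0.0321), and all 9 were negative with a median of -0.13, beside 0.01 for all probe sets. There, 4 of the 9 had an unadjusted p under 0.05 (limma). P2ry12, a purine receptor of resting microglia, had 0.33 in LowCORT minus Sham (SE 0.12, adjusted p = 0.199) and -0.36 in IntermediateCORT minus LowCORT (SE 0.13, adjusted p = 0.162). Csf1r and Cx3cr1, receptors on which microglia are commonly recognised, had 0.05 and 0.07 in LowCORT minus Sham (adjusted p = 0.688 and 0.771). In injected minus LowCORT 0 of the 9 were called and 0 had an unadjusted p under 0.05, with a median of -0.04.

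Of 13 tested complement genes other than the members, 0 were called by limma in these 3 comparisons, and 3, 2 and 3 had an unadjusted p under 0.05. Their median was 0.15 in LowCORT minus Sham, with 10 positive, -0.03 in IntermediateCORT minus LowCORT and 0.01 in injected minus LowCORT. Of 7 tested Fc receptor and signalling genes other than Fcgr2b, 0 were called in the 3 comparisons, 2, 1 and 0 had an unadjusted p under 0.05, with medians of 0.01, -0.02 and 0.04. Of 12 other lysosomal protease genes, 1 was called, Ctsk (cathepsin K), which rose by 0.29 in IntermediateCORT over LowCORT (limma adjusted p = 0.026), the direction opposite to Fcgr2b. Most of the list did not follow Ctsk there, with 5 positive and 7 negative and a median of -0.02. In the 3 comparisons 0, 3 and 0 of the 12 had an unadjusted p under 0.05 (limma). The 2 tested markers of border macrophages, of 4 on the array, were not called in these comparisons.

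Some markers of other cell types moved beside these results, and others of the same lists did not. The mean log2 level of the 6 endothelial markers was 8.27 ± 0.05 (n = 10) in Sham, 8.39 ± 0.06 (n = 10) in LowCORT, 8.24 ± 0.06 (n = 9) in IntermediateCORT and 8.35 ± 0.10 (n = 10) in injected rats, the order of LowCORT, Sham and IntermediateCORT being that of Fcgr2b. Of the 6, 1 was called, Slco1a4, in LowCORT minus Sham (0.56) and in IntermediateCORT minus LowCORT (-0.59). The medians of the 6 were smaller. They were 0.03 in the first comparison, with 4 positive and 2 negative, and -0.06 in the second, with 1 positive and 5 negative. The order of the means is thus not that of each marker. The 9 microglial genes other than members had 7.44 ± 0.08, 7.53 ± 0.03, 7.39 ± 0.06 and 7.48 ± 0.06 in the same order of groups. The 4 red cell markers were highest in injected rats, at 10.03 ± 0.33 against 9.62 ± 0.31 in LowCORT, and 1 of them, Alas2, was called (0.31, adjusted p = 0.037). The 6 lymphocyte markers ranged between group means of 6.90 and 6.96, with 0 called. Of the 6 meningeal and fibroblast markers 1 was called in LowCORT minus Sham, Dcn (0.42, limma adjusted p = 0.0135), which was also called lower in IntermediateCORT than in LowCORT (-0.48, adjusted p = 0.00412). The 6 did not follow Dcn in the first comparison, with 2 positive and 4 negative and a median of -0.02. In the second they also had 2 positive and 4 negative, with a median of -0.03. In injected minus LowCORT they had 5 positive and 1 negative, with a median of 0.06. Counting every probe set of these markers, 2 of 13 were called higher in LowCORT minus Sham, 3 lower in IntermediateCORT minus LowCORT and 1 lower in injected minus LowCORT. Of the 7 oligodendrocyte markers 1 was called, Cnp, lower in IntermediateCORT than in LowCORT (-0.28, limma adjusted p = 0.0137). The 7 were split there, with 3 positive and 4 negative and a median of -0.01. The 6 astrocyte markers had 0 called, with group means from 9.75 in LowCORT to 9.91 in Sham. The 7 CA1 pyramidal neuron markers were highest in IntermediateCORT rats, at 10.84 ± 0.13 (n = 9) against 10.63 ± 0.15 (n = 10) in LowCORT. Hpca (0.53, limma adjusted p = 0.00632) and Itpka (0.58, adjusted p = 0.00982) were called there, with 6 of the 7 positive and 1 negative. In LowCORT minus Sham 1 of the 7, Nr3c2, was called higher (0.44, adjusted p = 0.0218). The list did not follow it, with 3 positive and 4 negative, a median of -0.08 and a Sham mean of 10.67. The part of these cell types in the members' differences was not tested.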

How the data were processed

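The authors deposited 1 table of log2 expression values for 8799 probe sets of an Affymetrix rat array on 39 arrays; the submitters' processing notes list MAS5, RMA and R 2.7.1 without saying which tool produced the values. Array medians lay between 7.27 and 7.33, and no further normalization was applied. The 59 control probe sets were left out, and probe sets with a mean under the 30th percentile (6.28) were not tested, which left 6118.

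Groups came from the labels. Differences were tested with limma 3.58.1 (R 4.3.3), fitting every group's mean over the 39 arrays at once, with 35 residual degrees of freedom and two-sided tests, adjusted by Benjamini-Hochberg over the 6118 probe sets in each of 6 comparisons and the F test, and called at an adjusted p under 0.05. SE and 95% intervals are from limma. Correlations used 100000 permutations within groups (scipy 1.17.1, numpy 2.4.6). The scripts were tested on simulated data. The number of arrays limits the precision, and there is no read depth.

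Every probe set of the members is named. Of each gene list, up to 4 called genes per comparison are named, and others are named as defining markers chosen after their values were seen. The members and lists were chosen with earlier results of these data known. Gene names are those of the platform annotation, and 6985 of the 7006 Entrez identifiers matched the RefSeq gene table of GRCr8. Promoters are from RefSeq (GRCr8); 6 of 9 members matched, and Fcgr2b, Aif1 and C1qc have none here.

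Alternatives were other filters (none, 50th percentile), quantile normalization, trended robust moderation, array weights, the 3′ minus 5′ differences or the subject order as covariates, only the compared groups, each array left out, and, chosen after seeing the data, leaving out arrays with a Gapdh difference above 1.5.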

Additional observations from a re-analysis of the deposited data

Results flagged for a closer look

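Single animals lay apart from their group in 10 of 60 combinations of probe set and group, by a gap to the nearest other animal that was large against the range of the group (Dixon's 95% limit), and chance alone gives such a gap in about 1 of 20. Sham animal 6 did so on 5 probe sets. It was low for Aif1 (6.66 by U10894_s_at, next 7.33, and 5.06 by U17919_s_at, next 5.91) and for C3 (7.12 by M29866_s_at, next 7.49). It was high for C1qb (10.19 by X71127_at, next 9.85) and for Coro1a (9.78, next 9.32). LowCORT animal 20 was low for Lyz2 (8.28, next 8.91) and for Aif1 (5.86 by U17919_s_at, next 6.51). The remaining 3 were high values of the 2 C1qc probe sets below the level filter: 6.21 and 6.56 in Sham animal 9 and 6.17 in IntermediateCORT animal 18.

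Without Sham animal 6, LowCORT minus Sham was 0.49 for Fcgr2b (adjusted p = 0.00239) and 0.43 for Aif1 by U10894_s_at (adjusted p = 0.0797). Without LowCORT animal 20 the same differences were 0.59 (adjusted p = 0.000194) and 0.59 (adjusted p = 0.0159). Why these 2 animals stood apart was not tested.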

How the results depend on the processing

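The Fcgr2b differences of LowCORT from Sham and from IntermediateCORT kept direction and call in each alternative that tested the gene; the filter at the 50th percentile removed it and Cd53 by their level. No paired analysis was possible because subject numbers run from 1 to 39 over the groups and no number is shared between them. Members called, in the order of the report's comparisons, are given here where they changed. At the 50th percentile filter 1 was called in LowCORT minus Sham, 1 in IntermediateCORT minus LowCORT, 1 in injected minus LowCORT and 1 by the F test, of 10 tested. Array weights called 3 in LowCORT minus Sham, 7 in IntermediateCORT minus LowCORT, 3 in injected minus LowCORT, 1 in injected minus IntermediateCORT and 8 by F. With the 3′ minus 5′ covariates 3 were called in LowCORT minus Sham, 4 in IntermediateCORT minus LowCORT, 1 in injected minus LowCORT, 2 in injected minus IntermediateCORT and 6 by F. Subject order gave 3 in LowCORT minus Sham, 1 in injected minus IntermediateCORT and 5 by F. With no filter or with quantile normalization 2 were called by F. With only the 2 groups compared 4 were called in IntermediateCORT minus LowCORT and 0 in injected minus LowCORT, and without arrays of a Gapdh difference above 1.5 there were 0 there and 1 in injected minus IntermediateCORT. Leaving out 1 array gave 1 to 3 (LowCORT minus Sham), 1 to 4 (IntermediateCORT minus LowCORT), 0 to 2 (injected minus LowCORT), 0 to 1 (injected minus IntermediateCORT) and 1 to 5 (F). Over all probe sets, the calls in LowCORT minus Sham (103) became 170 with array weights, 175 with the 3′ minus 5′ covariates and 185 with subject order. Those in IntermediateCORT minus LowCORT (131) became 338 with array weights, and those in injected minus LowCORT (21) 50 with array weights and 36 with subject order. Those in injected minus IntermediateCORT (12) became 6 at the 50th percentile, 105 with array weights, 19 with covariates, 32 with subject order and 0 with the 2 groups alone. Those in injected minus Sham (14) became 5, 33, 22, 30 and 1 in the same order. Those in IntermediateCORT minus Sham (1) became 2 with array weights, 12 with covariates, 3 with subject order and 4 with the 2 groups alone, and the F test's 139 became 307 and 229 with array weights and subject order. The cause was not tested. Fewer arrays and, at the 50th percentile, fewer probe sets entered by construction.

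Of 78 differences, 14 changed sign in some alternative, all at most 0.07 in size and with adjusted p of 0.867 or more in the main analysis. Quantile normalization gave -0.0074 for Aif1 U33471_at in IntermediateCORT minus LowCORT and 0.0059 in injected minus Sham, 0.0029 for C1qc in injected minus IntermediateCORT and 0.0011 for Aif1 U10894_s_at in IntermediateCORT minus Sham. Array weights gave 0.0016 for C1qc in LowCORT minus Sham, -0.037 for Aif1 U33471_at in IntermediateCORT minus LowCORT, -0.011 for Coro1a in injected minus LowCORT and 0.22 for Aif1 U17919_s_at in injected minus IntermediateCORT. In IntermediateCORT minus Sham they gave -0.031 for C3 M29866_s_at, -0.020 for C3 X52477_at and -0.10 for Aif1 U17919_s_at. The 3′ minus 5′ covariates gave 0.012 for C1qc and 0.049 for C1qb X71127_g_at in LowCORT minus Sham, 0.030 for C1qc and 0.24 for Aif1 U17919_s_at in injected minus IntermediateCORT, and -0.020 for C3 M29866_s_at in IntermediateCORT minus Sham. Without arrays of a Gapdh difference above 1.5, C1qc had 0.029 and Aif1 U17919_s_at 0.083 in injected minus IntermediateCORT, and Aif1 U33471_at had 0.0024 in injected minus Sham.

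With 1 array left out, values that changed sign ranged, in IntermediateCORT minus Sham, from -0.11 to 0.030 (Aif1 U10894_s_at), -0.077 to 0.11 (Aif1 U17919_s_at), -0.055 to 0.038 (C3 M29866_s_at), -0.033 to 0.036 (C3 X52477_at) and -0.050 to 0.012 (Ctss). In injected minus Sham they ranged from -0.080 to 0.17 (Aif1 U17919_s_at), -0.045 to 0.020 (Aif1 U33471_at) and -0.051 to 0.12 (C1qb X71127_g_at). In injected minus IntermediateCORT they ranged from -0.047 to 0.12 (Aif1 U17919_s_at) and -0.051 to 0.014 (C1qc), and in IntermediateCORT minus LowCORT from -0.017 to 0.045 (Aif1 U33471_at). Of the member pairs correlated within groups, 36.1% passed, against 27.8% with the 3′ minus 5′ differences held constant and 43.8% over every pair of probe sets of 2 genes.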

Other observations

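The 2 Aif1 probe sets with the larger differences between groups, of which only U10894_s_at was called, were most like genes outside the microglial list. This holds over the 39 animals with group means removed. It is not particular to them. The third Aif1 probe set, U33471_at, was most like Ins1 (r = 0.77) and Slc4a1 (r = 0.75). Of the other tested probe sets, only that of Fcgr2b had a gene of the microglial list among its nearest. U17919_s_at was most like Rps3 (r = 0.94, rho = 0.87), a ribosomal protein gene, and Gsta1 (r = 0.91, rho = 0.80). U10894_s_at was most like Rpl4 (r = 0.89, rho = 0.82), also a ribosomal protein gene, and S100b (r = 0.89, rho = 0.78), an astrocyte gene. Their r with each other was 0.88, and with the third Aif1 probe set 0.06 and 0.17. These are the highest of 5065 values each and are given as a description.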
